A study of Mus musculus with 2 samples.

Results

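Genomic imprinting is the expression of a gene from 1 parental chromosome only, and 47 imprinted mouse genes in 20 chromosomal clusters are described here by cluster and by expressed allele. The members were taken from general knowledge of imprinted loci and matched by symbol to a table of 13620 genes, in which 34 of the 47 were listed. They were chosen with earlier results of these data known, so counts of them are descriptions. The 13 others are named beside their clusters below.

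Imprinted genes lie in groups governed by imprinting control regions, stretches of DNA that carry methylation from either the egg or the sperm. The KRAB zinc finger protein ZFP57, with its partner TRIM28 and maintenance methyltransferases, is known to hold that methylation through the early embryo and in embryonic stem (ES) cells. Many members regulate the growth of the embryo and placenta or are expressed in extraembryonic tissue, and several are known to lose strict imprinting in cultured ES cells.

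Polyadenylated RNA was sequenced from ES cells of strain C57BL/6J, with 1 wild-type (WT) library and 1 of genotype Fbxl10 T/T. Both cultures were kept with serum and leukemia inhibitory factor on fibroblast feeders, which were depleted before use. Fbxl10 is an older symbol of Kdm2b, whose protein binds unmethylated CpG islands and belongs to a variant Polycomb complex. The comparison asks how RNA levels differ in cells homozygous for the T allele. What the T allele is, and how many clones were grown, is not stated by the labels.

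The values are CPM, read counts scaled to a normalised library size, and came from 21198574 reads in WT and 27109446 in T/T. Kdm2b, listed as Fbxl10, stood at 103 CPM in WT and 10.6 CPM in T/T, 9.66-fold lower (8.50 to 11.02). Intervals of folds are exact Clopper-Pearson binomial 95% intervals from the reads and cover counting error only, since copies made by PCR are not independent molecules. There was 1 library per genotype and so no replicate and no test, and "higher" and "lower" describe these 2 libraries. The reads do not distinguish the parental chromosomes, so no value shows from which allele an RNA came.

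The ES cell label was checked against markers. Of all 13512 genes at 1 CPM or more in a library, 20.6% were at least 2-fold lower in T/T and 14.8% higher. Of 12 ES cell markers, 8 were at least 2-fold lower in T/T and 0 higher, and their summed level was 7301 CPM in WT and 2153 CPM in T/T. The pluripotency factor Nanog stood at 782 and 48.8 CPM, Pou5f1 at 1328 and 256.6 CPM, and Klf4 at 591 and 513.7 CPM. Of 19 listed extraembryonic endoderm markers (of 20, without Afp), 16 were higher and 2 lower, with a sum of 8793 CPM in WT and 76485 CPM in T/T. The endoderm factor Gata4 stood at 136 and 1478 CPM. The library labelled as Fbxl10 T/T ES cells therefore held lower levels of most ES markers and higher levels of most endoderm markers than WT. Of 19 fibroblast markers 3 were lower (15.8%, under the share of all genes) and 0 higher, with sums of 1571 and 1016 CPM. Of 9 trophoblast markers 6 were lower and 3 higher (863 and 2188 CPM). Most of that T/T sum was Krt8 (295 and 1102 CPM) and Krt18 (345 and 936 CPM), whereas the 6 lower ones included Cdx2 (6.28 and 0.324 CPM). Of 6 neural markers 4 were lower and 0 higher (200 and 115 CPM). The trophoblast markers Elf5, Gcm1 and Tpbpa were not listed. In bulk RNA, fewer cells of a type and less RNA per cell cannot be told apart. The markers' part in the results below was not tested.

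Most listed imprinted genes had less RNA in the Fbxl10 T/T library. At least 2-fold lower, on the scale of log2(CPM + 0.5), were 18 of the 34 members, against 20.6% of all 13512 genes at 1 CPM or more in a library. At least 2-fold higher were 3 members, Peg3, Sgce and H13, against 14.8% of all genes, and 13 lay in between. Negative log2 ratios of T/T over WT were found for 27 members. The median log2 ratio of the 34 was -1.08, against 0.02 for all genes. Its 95% range from order statistics, -2.03 to -0.60, treats members as independent although several share a cluster, so it is no test. The summed level of the members was 3364 CPM in WT and 1259 CPM in T/T. At 4-fold, 11 members were lower (32.4%, against 9.10% of all genes) and 0 higher (against 3.84%).

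Counts of members were also set beside genes of like level. Among members with a mean of 5 CPM or more, 14 of 30 were lower and 3 higher, against 13.3% and 16.7% of such genes. Below that mean, 4 of 4 members were lower and 0 higher, against 44.7% and 8.25%. These 4 had at most 14 reads in T/T, and genes under 28 reads there were listed only with 22 or more in WT. They were thus listed only through WT, so a lower level was favoured in advance and the 4 of 4 is no support. Of the 16 members on chromosome 7, 11 were lower and 1 higher, against 25.5% and 12.0% of the other genes of that chromosome, and 7 of the 18 members elsewhere were lower. The 3 members just inside or outside the 2-fold line were Cd81 at -1.03 and Mkrn3 and Igf2r, both at -0.91. Scaling to the reads of the listed genes, an alternative chosen after the data were seen, gave 22 members lower and 0 higher, beside 3405 and 1310 of all genes (2781 and 1994 with the authors' scaling).

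**Figure D1:**
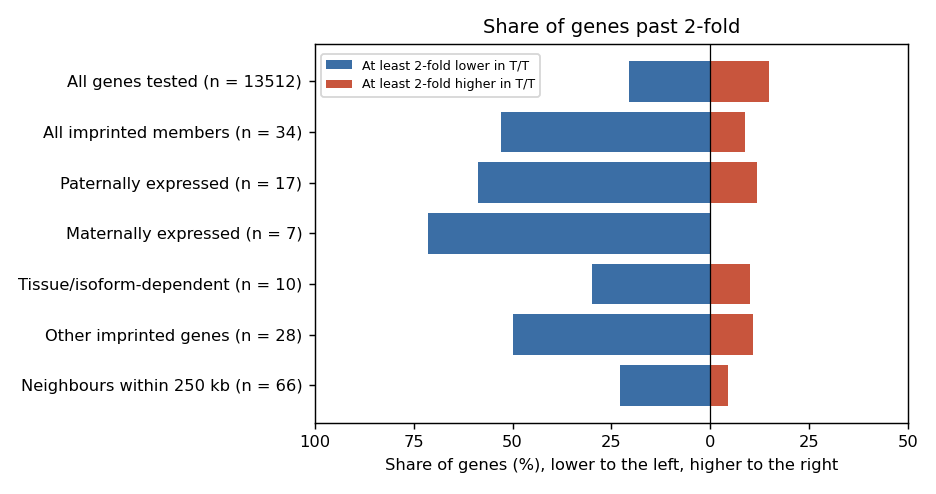
Share of genes (percent, horizontal axis) at least 2-fold lower (left of 0) or higher (right of 0) in Fbxl10 T/T than in WT, for all genes, the imprinted members, their allele groups, further imprinted genes and neighbours, with 1 library per genotype and no error bars. Members were lower in 18 of 34 cases, against 20.6% of all genes.

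**Figure D2:**
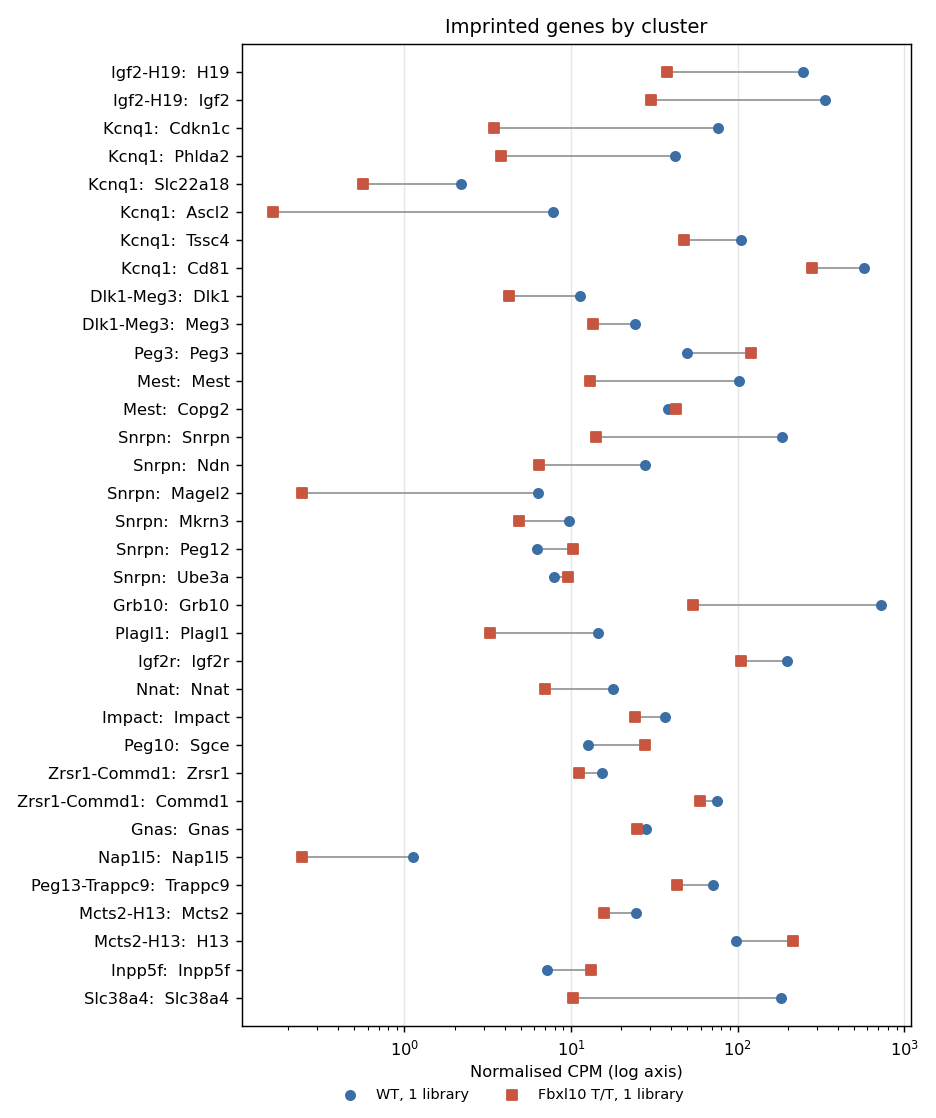
Level of each listed member in normalised CPM (horizontal log axis) in the WT library (circle) and the Fbxl10 T/T library (square), ordered by cluster, with 1 library per genotype. The 2 members of the Igf2-H19 cluster and the 6 of the Kcnq1 cluster all lie to the left in T/T, and Peg3, Sgce and H13 lie to the right.

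By summed level, 9 of the 19 clusters with a listed member were at least 2-fold lower, 2 higher and 8 in between. The twentieth, Rasgrf1, a guanine nucleotide exchange factor gene whose methylation comes from sperm, was not listed. Of the 7 clusters with several listed members, 2 had every listed member at least 2-fold lower and 4 had only negative ratios.

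The Igf2-H19 cluster on chromosome 7 was lower for both of its reciprocally imprinted genes. H19 (chr7:149761437-149764022, build mm9, as are all coordinates of genes here) is a maternally expressed noncoding RNA, and it fell from 5900 reads (247 CPM) in WT to 927 reads (37.6 CPM) in T/T, 6.58-fold lower (6.14 to 7.06). Igf2 (chr7:149836673-149852721), the paternally expressed fetal growth factor, stood at 336 and 30.2 CPM, 11.1-fold lower (10.3 to 12.02). The ratios of the pair differed by 0.75 on the log2 scale, and the sum of the cluster went from 583 to 67.8 CPM, 8.61-fold lower.

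All 6 listed genes of the neighbouring Kcnq1 cluster were lower as well. Cdkn1c (chr7:150644255-150646901), a maternally expressed inhibitor of cyclin-dependent kinases, stood at 76.4 CPM (1824 reads) in WT and 3.44 CPM (85 reads) in T/T, 22.2-fold lower (17.8 to 27.9). Phlda2 (chr7:150687453-150688429), which restrains placental growth, stood at 42.2 and 3.81 CPM, 11.1-fold lower (8.97 to 13.9). Ascl2 (chr7:150152734-150155169), a transcription factor of the ectoplacental lineage, had 186 reads (7.79 CPM) and 4 reads (0.162 CPM), 48.1-fold lower with the wide interval of 18.5 to 178. These 3 are the placental and growth genes of the domain. Slc22a18, a transporter gene, had 52 and 14 reads (2.18 and 0.567 CPM), 3.84-fold lower (2.10 to 7.50). Tssc4 and the tetraspanin gene Cd81, whose imprinting is seen chiefly in placenta, differed less. Tssc4 stood at 106 and 47.4 CPM, 2.23-fold lower (2.08 to 2.39). Cd81 stood at 575 and 281 CPM, 2.05-fold lower (1.99 to 2.11), and its interval overlaps that of another listed gene. The paternally expressed antisense RNA Kcnq1ot1, which silences the domain in cis, was not listed, so the RNA that carries the paternal state of this cluster was not analysed here.

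Along the stretch from H19 to Osbpl5, 8 of 8 members were lower with a median of -3.01. Of the 8 other genes at 1 CPM or more in a library, 4 were lower, with a median of -0.999, against 20.6% of all genes. Tspan32, R74862, Trpm5 and Tnfrsf22, among the 8, had a mean under 5 CPM. At such levels 44.7% of all genes were lower, against 13.3% at 5 CPM or more. Cars and Tnfrsf23, both called lower, lay just past the 2-fold line at -1.01 and -1.04. Among these others, Tspan32, Nap1l4 and Osbpl5 are on a list of further imprinted genes, so this is no contrast of imprinted with other genes. Tspan32os, with 23 and 0 reads, stayed under 1 CPM and is not counted. Nap1l4, a histone chaperone gene, stood at 193 and 237 CPM, directly beside Phlda2. The sterol-binding protein gene Osbpl5 stood at 11.5 and 9.60 CPM. Tspan32, beside Ascl2, stood at 4.40 and 0.203 CPM. Negative ratios were thus spread over the stretch, and Nap1l4 was the only listed gene in it with a positive ratio.

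**Figure D3:**
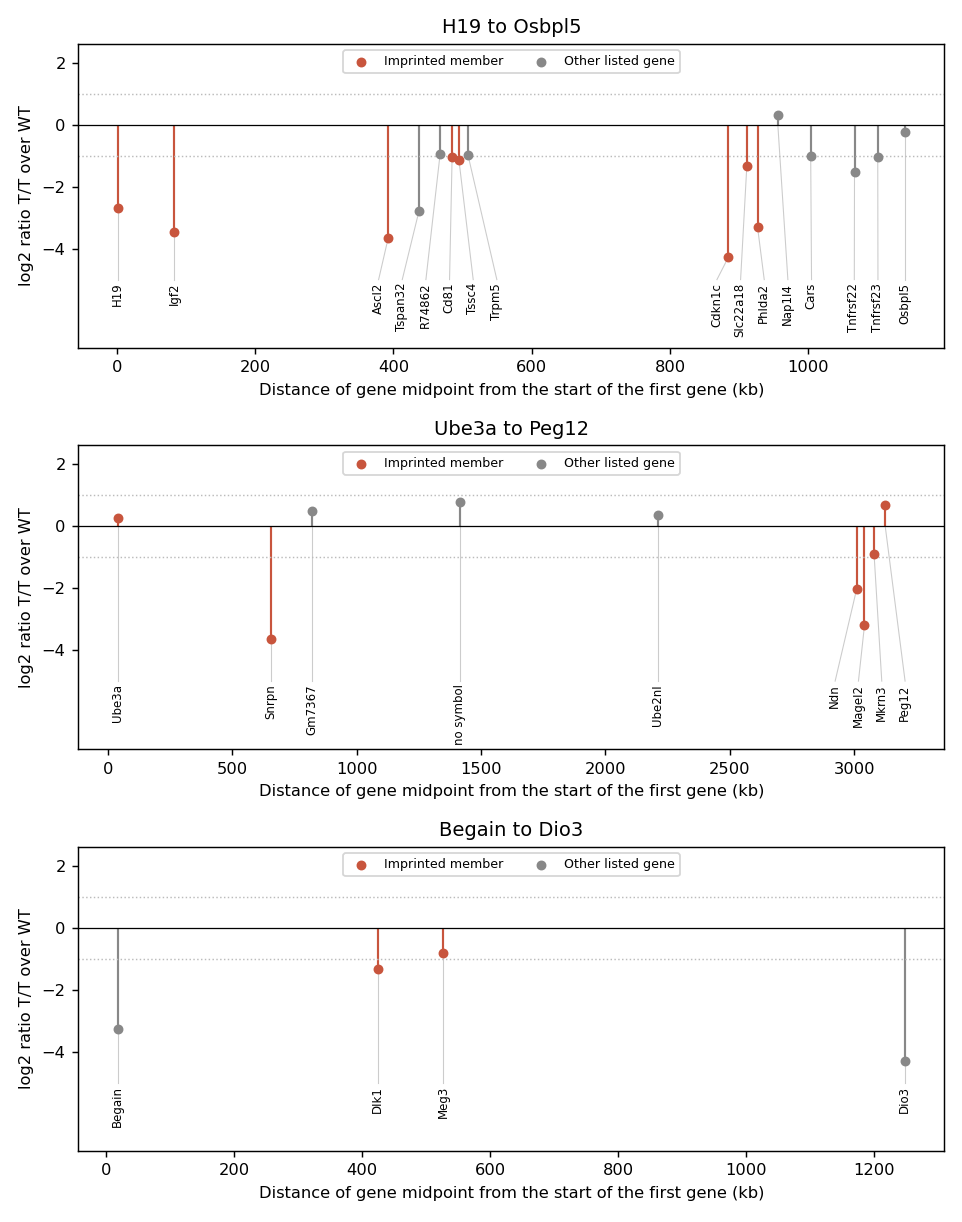
The log2 ratio of Fbxl10 T/T over WT (vertical axis) against distance along the chromosome in kb (horizontal axis, to scale) for genes at 1 CPM or more in a library. The stretches run from H19 to Osbpl5, Ube3a to Peg12 and Begain to Dio3, with members in red and other genes in grey. All 8 members in the first stretch lie below -1, and Snrpn lies low in the second while Ube3a and Peg12 lie above 0.

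The Snrpn cluster, the mouse counterpart of the Prader-Willi and Angelman region, was mixed. Snrpn (chr7:67127388-67149997), which encodes a spliceosomal Sm protein from the paternal allele, stood at 185 CPM (4408 reads) in WT and 14.2 CPM (350 reads) in T/T, 13.02-fold lower (11.7 to 14.6). Ndn, a paternally expressed gene of the MAGE family, stood at 27.8 and 6.40 CPM, 4.34-fold lower (3.64 to 5.19). Magel2 (chr7:69524573-69526522), of the same family, had 151 and 6 reads (6.32 and 0.243 CPM), 26.01-fold lower (11.7 to 72.0). Beside them, 2 genes of the same paternal domain did not pass the 2-fold line. Mkrn3, a ubiquitin ligase gene, stood at 9.67 and 4.90 CPM, 1.97-fold lower (1.58 to 2.48). Peg12 stood at 6.28 and 10.3 CPM, with a T/T over WT ratio of 1.64 (1.34 to 2.03). Peg12 thus had a positive ratio beside genes that were lower. Ube3a, a ubiquitin ligase gene that is maternally expressed in neurons, stood at 7.91 and 9.60 CPM, a ratio of 1.21 whose interval of 0.998 to 1.48 includes 1. Its sign turned with scaling to the reads of the listed genes (log2 ratio -0.03). Snurf, which shares its transcript with Snrpn, was not listed. The 3 other genes at 1 CPM or more in a library between Ube3a and Peg12 had positive ratios, with 0 lower.

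In the Dlk1-Meg3 cluster on chromosome 12 both listed genes had less RNA in T/T. Dlk1 (chr12:110691059-110698901), a paternally expressed transmembrane relative of Notch ligands, stood at 11.4 and 4.25 CPM, 2.68-fold lower (2.13 to 3.39). Meg3 (chr12:110784505-110809929), the maternally expressed noncoding RNA of the cluster, stood at 24.2 and 13.6 CPM, 1.79-fold lower (1.56 to 2.05), short of the 2-fold line. Rtl1, Rian and Mirg were not listed. The flanking genes Begain and Dio3, which are not members, were lower by more. Begain stood at 8.71 CPM (208 reads) and 0.446 CPM (11 reads). Dio3, a thyroid hormone deiodinase gene, stood at 75.4 and 3.36 CPM.

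Grb10 and Slc38a4, outside these clusters, had lower ratios than Igf2 or Snrpn. Grb10 (chr11:11830511-11937404), an adaptor that restrains insulin and growth factor receptors and is expressed from different alleles in different tissues, stood at 723 CPM (17259 reads) in WT and 54.4 CPM (1342 reads) in T/T, 13.3-fold lower (12.6 to 14.1). Slc38a4 (chr15:96825254-96886387), a paternally expressed amino acid transporter gene, stood at 182 and 10.2 CPM, 17.8-fold lower (15.7 to 20.3). Mest (chr6:30673547-30697444), a paternally expressed gene of the hydrolase fold family, stood at 101 and 13.003 CPM, 7.80-fold lower (6.94 to 8.79). These 3 had at least 252 reads in each library. Plagl1, a paternally expressed zinc finger gene, stood at 14.6 and 3.28 CPM, 4.45-fold lower (3.49 to 5.74). Nnat, a small paternally expressed membrane protein gene inside an intron of Blcap, stood at 17.8 and 7.01 CPM, 2.55-fold lower (2.13 to 3.06). Nap1l5, an intronless gene within Herc3, had 27 and 6 reads (1.13 and 0.243 CPM), 4.65-fold lower (1.88 to 13.8), and lost its call with a pseudocount of 1 CPM (-0.78). Copg2, a coatomer gene next to Mest, stood at 38.1 and 42.5 CPM, so the ratios of Copg2 and Mest differed by 3.07 on the log2 scale. The sign of Copg2 turned with upper quartile scaling (-0.08) and with scaling to the listed reads (-0.15).

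The 3 higher members belong to 3 clusters. Peg3 (chr7:6658671-6683130), a paternally expressed zinc finger gene, stood at 49.5 CPM (1181 reads) in WT and 121 CPM (2977 reads) in T/T, a ratio of 2.44 (2.28 to 2.61). Usp29, which starts from the same promoter region, and Zim1 were not listed. Sgce (chr6:4624350-4697204), the paternally expressed epsilon-sarcoglycan gene, stood at 12.6 and 27.7 CPM, a ratio of 2.19 (1.91 to 2.52). Its partner Peg10, and Asb4, were not listed. H13 (chr2:152495224-152530787), the signal peptide peptidase gene, stood at 97.6 and 216 CPM, a ratio of 2.21 (2.11 to 2.32). Mcts2, a paternally expressed retrogene within H13, stood at 24.5 and 15.9 CPM, 1.55-fold lower (1.36 to 1.76), and the pair differed by 1.75 on the log2 scale. All 3 lost the higher call under scaling to the listed reads, with log2 ratios of 0.97 for Peg3, 0.80 for Sgce and 0.83 for H13, each still positive.

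The other members lay within the 2-fold lines. Igf2r (chr17:12875279-12962530), the maternally expressed receptor that clears IGF2 to lysosomes, stood at 198 and 105 CPM, 1.89-fold lower (1.80 to 1.98). Its antisense RNA Airn was not listed under that symbol. A row at chr17:13009250-13011409 had the identifier of Airn but the symbol D17Ertd663e. It had 10 reads (0.419 CPM) in WT and 121 reads (4.90 CPM) in T/T, a ratio of 11.7 (6.15 to 25.03). That row is not counted among the members, because these were matched by symbol. Its position outside the interval of Igf2r does not decide whether it measures Airn. Counted as Airn, it would make 4 members higher, 3 of them paternally expressed. Trappc9, a trafficking complex gene whose partner Peg13 was not listed, stood at 71.6 and 43.3 CPM, 1.65-fold lower (1.53 to 1.78). Impact, a regulator of translation, stood at 36.8 and 24.2 CPM, 1.52-fold lower (1.37 to 1.69). Inpp5f, an inositol phosphatase gene with an imprinted isoform, stood at 7.202 and 13.2 CPM, a ratio of 1.83 (1.51 to 2.21). The splicing factor retrogene Zrsr1 stood at 15.2 and 11.2 CPM. Its host gene Commd1, a copper homeostasis gene, stood at 74.9 and 59.3 CPM. Gnas, which encodes the stimulatory G protein alpha subunit, stood at 28.3 and 24.95 CPM, and Nespas, an antisense RNA of the locus, was not listed. Zrsr1, Commd1 and Gnas were the listed members whose levels were closest between the libraries together with Copg2 and Ube3a. Because the strand setting of the counting was not given in the sources used here, reads of overlapping pairs such as Mcts2 and H13 or Zrsr1 and Commd1 may not be fully separated. Without the 8 members whose interval overlaps another listed gene, 15 of 26 were lower and 2 higher, and the median was -1.32.

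By expressed allele, both directions of imprinting had mostly negative ratios, whereas 6630 of all 13512 genes had one. The shares of all genes, 20.6% lower and 14.8% higher, are the background for each group. Of 26 paternally expressed members, 17 were listed, with 10 lower, 2 higher and a median log2 ratio of -1.29. Of 11 maternally expressed members, 7 were listed, with 5 lower, 0 higher and a median of -2.70, and all 7 ratios were negative. The 10 members whose imprinting depends on tissue or isoform, all listed, had 3 lower and 1 higher, near the background, and a median of -0.26. The maternal group holds 4 genes of the Kcnq1 cluster, so its members share a chromosomal domain. Whether the allele groups differed was not tested, because members are not replicates of a condition.

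**Figure D4:**
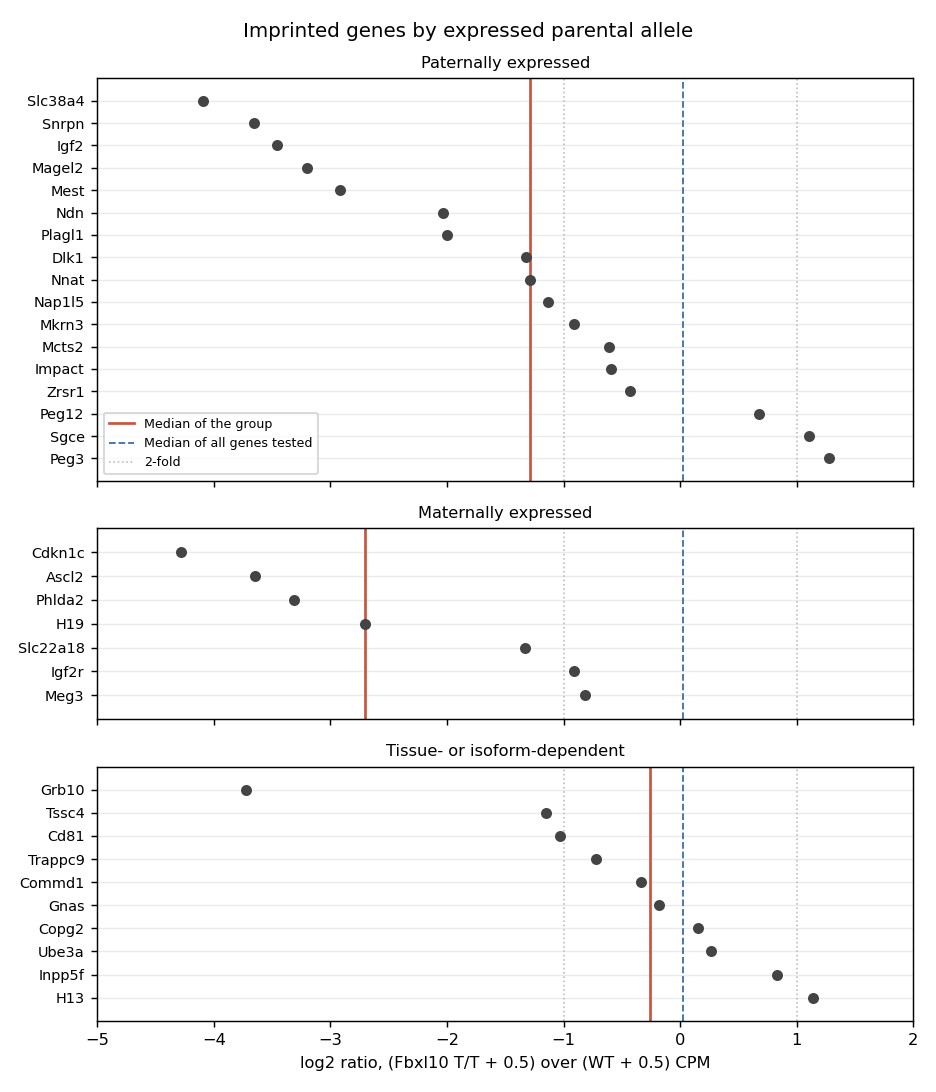
The log2 ratio of Fbxl10 T/T over WT (horizontal axis) of each listed member, in panels for paternally expressed, maternally expressed and tissue- or isoform-dependent genes, with the group median (solid) and the median of all genes (dashed). Medians were -1.29, -2.70 and -0.26, against 0.02 for all genes.

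The paternally expressed members were also divided by promoter. In one class the promoter itself lies at an imprint that is methylated on the maternal chromosome, and 10 of 17 of these were listed. Of them 5 were lower and 2 higher (20.6% and 14.8% of all genes), and the median was -0.87. The 2 higher, Peg3 and Sgce, make a share near that of all genes. Of the paternally expressed members with promoters elsewhere, 6 of 8 were listed, 4 were lower and 0 higher, and the median was -1.68. Slc38a4 was placed in neither class. Without overlapping genes, 3 of the first class were lower and 2 higher.

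Promoter sequences of 5 members of the first class are shown because they cover the range of responses, from Snrpn, Mest and Nap1l5, which were lower, and Mcts2, within the 2-fold lines, to Peg3, which was higher. The bases are from RefSeq (build GRCm38.p6), end at or up to 113 bases before an annotated start, and capitals mark TGCCGC, the motif read by ZFP57, or its reverse complement GCGGCA. The positions are chr6:30737803-30738049 on the plus strand for Mest, chr6:58907127-58907261 on the minus strand for Nap1l5, chr2:152686898-152687034 on the plus strand for Mcts2, chr7:60005200-60005449 on the minus strand for Snrpn and chr7:6730432-6730577 on the minus strand for Peg3, where the stretch lies between the starts of Peg3 and Usp29.
Mest: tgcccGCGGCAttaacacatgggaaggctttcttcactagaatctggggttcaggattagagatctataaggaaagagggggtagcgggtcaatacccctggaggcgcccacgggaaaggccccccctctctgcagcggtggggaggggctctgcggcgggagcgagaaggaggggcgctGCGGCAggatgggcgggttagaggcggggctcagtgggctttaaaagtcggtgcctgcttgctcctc
Nap1l5: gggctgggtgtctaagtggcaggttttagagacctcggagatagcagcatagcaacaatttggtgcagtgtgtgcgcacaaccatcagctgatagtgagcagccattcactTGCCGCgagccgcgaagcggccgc
Mcts2: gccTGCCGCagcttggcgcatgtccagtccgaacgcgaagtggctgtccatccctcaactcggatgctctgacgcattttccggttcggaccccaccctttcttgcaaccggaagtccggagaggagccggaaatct
Snrpn: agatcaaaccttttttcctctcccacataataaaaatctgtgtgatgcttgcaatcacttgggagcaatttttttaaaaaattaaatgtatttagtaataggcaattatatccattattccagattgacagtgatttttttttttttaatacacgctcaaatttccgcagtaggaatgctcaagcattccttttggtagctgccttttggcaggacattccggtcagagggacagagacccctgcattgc
Peg3: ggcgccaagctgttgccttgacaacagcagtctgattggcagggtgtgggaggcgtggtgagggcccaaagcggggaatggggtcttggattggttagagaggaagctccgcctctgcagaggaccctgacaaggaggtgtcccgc

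The Mest stretch held the motif 2 times and 14 CpG dinucleotides, and those of Nap1l5 and Mcts2 held it 1 time each, with 8 and 12 CpG. The stretches of Snrpn and Peg3 held 0 motifs, with 3 and 5 CpG, and in Snrpn the motif lies in the same 300-base window but after the start. The lower genes shown thus include stretches with and without these letters. RefSeq windows (250 bases before to 50 after a start) were found for 38 of the 47 members. The motif, on either strand, was in 11.6% of all 32851 windows and in 14 of 55 windows of members. At least 1 window with it was found in 13 of 38 members, and in 7 of the 12 paternally expressed members with a window and a promoter at an imprint. Snrpn and Snurf, both among the 7, share the same window with the motif. No share of all genes with at least 1 such window was computed, and members with several windows have more chances to hold the motif. With the most CpG-rich window of each listed gene, the motif was in 10 of 29 members (34.5%) and in 20.8% of 10064 genes. It was in 6 of 16 lower members (37.5%) and 4 of 13 others (30.8%). These letters describe the windows and do not show that a protein was bound.

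CpG content is of interest because KDM2B binds CpG islands. Of members whose window had an observed over expected CpG ratio of 0.6 or more, 11 of 21 were lower, against 16.2% of genes with such windows. Below 0.6, 5 of 8 members were lower, against 34.0%. Members were thus lower more often than the background in both classes of window, a description with no test.

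Genes beside the members differed less. Of 67 other genes listed within 250 kb of a member, 66 reached 1 CPM in a library, and of these 15 were lower and 3 higher, and the median was -0.08. Leaving out genes on a list of further imprinted genes, 10 of 54 (18.5%) were lower and 2 higher, and the median was -0.04, against 20.6%, 14.8% and 0.02 for all genes. Among those at 5 CPM or more in a library, the lowest log2 ratios were those of Cobl, beside Grb10, at 203 and 13.6 CPM, Pnldc1, near Igf2r, at 25.5 and 1.42 CPM, Herc3, the host of Nap1l5, at 17.1 and 2.43 CPM, and Klf14, in the Mest domain. Klf14, a maternally expressed transcription factor gene, had 124 reads (5.19 CPM) in WT and 0 in T/T. Its binomial interval starts at 34.2-fold lower, and with T/T set to a limit of 3 reads the fold would be 42.7. The highest were those of Ctsz, a cathepsin gene near Gnas, at 216 and 740.0 CPM, Ddc at 9.67 and 24.0 CPM, Bag3 at 80.1 and 170.5 CPM, and Acat2 at 45.1 and 90.1 CPM. Herc3 and Nap1l5, host and intronic gene, were both lower, whereas H13 and Mcts2 had ratios of opposite sign.

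A list of 40 further imprinted genes, which are not members and were also chosen with earlier results known, was examined. It had 28 listed genes, of which 14 (50%) were lower and 3 (10.7%) higher, against 20.6% and 14.8% of all genes. The median was -1.02, against 0.02 for all genes. Several of the lower genes, such as Klf14 and Begain, had a mean under 5 CPM, where 44.7% of all genes were lower. Among those at 5 CPM or more in a library, the lowest log2 ratios were those of Dio3, Cobl, Klf14 and Begain. Dio3 was 22.4-fold (18.0 to 28.3) and Cobl 14.9-fold lower (13.4 to 16.7). Begain, with only 11 reads in T/T, was 19.5-fold lower with the wide interval of 10.7 to 39.8. For Klf14, with 0 reads in T/T, the binomial interval starts at 34.2-fold lower. The highest ratio was that of Sfmbt2, a paternally expressed Polycomb-related gene needed in extraembryonic tissue, with 526 reads (22.0 CPM) in WT and 7325 reads (297 CPM) in T/T, a ratio of 13.5 (12.3 to 14.7). Dhcr7, a cholesterol synthesis gene with placental imprinting, stood at 17.5 and 49.3 CPM, and Zfp777 at 55.2 and 102 CPM. Of the 34 members, none had a ratio as high as that of Sfmbt2.

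Genes that set or keep imprints were examined beside the members. Of 24 such factors 23 were listed, without Nlrp2, with 5 lower (21.7%, against 20.6% of all genes), 1 higher and 17 in between, and the median was -0.46. As a list these factors were thus lower about as often as genes in general. Zfp57 itself stood at 303 and 94.4 CPM, 3.21-fold lower (3.06 to 3.36). Its partner Trim28 stood at 2752 and 964 CPM, 2.85-fold lower (2.81 to 2.90). The de novo methyltransferase gene Dnmt3a stood at 162 and 37.2 CPM, 4.36-fold lower (4.06 to 4.69). Dppa3, which protects the maternal genome from demethylation after fertilisation, had 137 and 23 reads (5.74 and 0.932 CPM), 6.16-fold lower (3.94 to 10.0). Uhrf1, which brings the maintenance methyltransferase to replicating DNA, stood at 342 and 168 CPM, while that enzyme's gene, Dnmt1, stood at 239 and 216 CPM. At the upper end were Rlim, a ubiquitin ligase gene required for imprinted X inactivation and listed as Rnf12, at 31.9 and 103 CPM, Smchd1 at 12.7 and 22.2 CPM, and Kdm1b, listed as Aof1, at 5.78 and 9.07 CPM. Dnmt3b, a de novo methyltransferase gene, stood at 213 and 284 CPM. The part of Zfp57, Trim28 and the other factors in the members' levels was not tested.

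**Figure D5:**
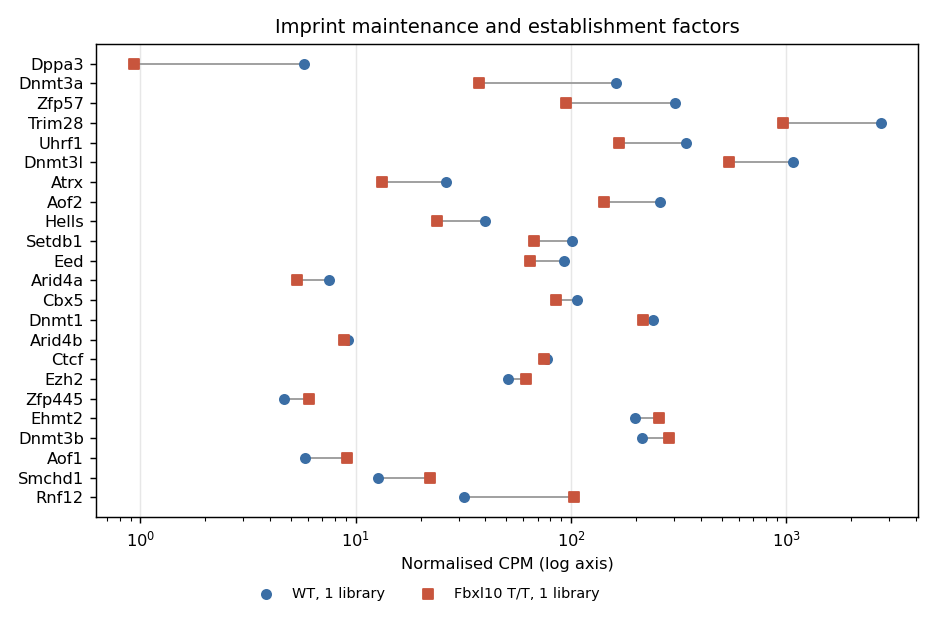
Levels of 23 genes that set or keep imprints in normalised CPM (horizontal log axis) in the WT library (circle) and the Fbxl10 T/T library (square), with 1 library per genotype; Aof1, Aof2 and Rnf12 are older symbols of Kdm1b, Kdm1a and Rlim. Zfp57 lies at 303 and 94.4 CPM and Trim28 at 2752 and 964 CPM, whereas Ctcf and Dnmt1 lie close together.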

How the data were processed

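Per the submitters' processing notes, reads were handled with TopHat (1.4.1), HTSeq (0.5.3p9) and edgeR on build mm9. The role of each tool, the gene models and whether strand was used are not named in these notes. The authors deposited a normalised signal per gene and library and a log2 ratio of WT over T/T. The deposited signal was called normalised CPM here, because its columns summed to 887645 and 1098136. All values (100%) were whole multiples of 1 step per library within 0.01 reads, so reads were recovered, with 1 read worth 0.0419 CPM in WT and 0.0405 CPM in T/T. The 24706 rows held 13620 genes, and the 11086 repeats were used once. Genes under 22 reads in WT and 28 in T/T were not analysed here, so an unlisted member may be low or absent from the annotation.

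Ratios are log2 of (T/T + 0.5) over (WT + 0.5) CPM, computed where either library reached 1 CPM, and calls are at 2-fold. Without the pseudocount, log2 ratios differed from the authors' deposited ones, with the sign turned, by at most 0.0018. This holds for 25 members at 5 CPM or more in both libraries. With the pseudocount the gaps were larger, as for Ndn, at -2.03 here and 2.12 (WT over T/T) in the deposited ratios. Folds carry no pseudocount. Count tests on the recovered reads compare the libraries, not the genotypes: an exact binomial test called 5580 genes lower and 5792 higher at an adjusted p of at most 0.05 (Benjamini-Hochberg), and edgeR 4.0.16 with an assumed coefficient of variation of 0.2 called 2861 and 2060. The steps were tested on simulated reads.

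The members and lists were chosen with earlier results of these data known. All listed members are named, as is Kdm2b. Also named are up to 4 genes at either end of each further list, among those at 5 CPM or more. Of each marker list, up to 3 defining genes are named. Uhrf1, Dnmt1, Krt8, Krt18, Cdx2 and the genes other than members between H19 and Osbpl5 were named after their values were seen. Alternatives were other pseudocounts, minima, scalings, fold thresholds and neighbour windows. Software was R 4.3.3 and Python 3.11.15 (scipy 1.17.1, pandas 2.3.3, matplotlib 3.10.9, numpy 2.4.6).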

Additional observations from a re-analysis of the deposited data

How the results depend on the processing

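Of 330 alternative values, 285 stayed within 1.5 times the reported count or near the reported median, 45 moved and 0 were classed as reversed. Counts cannot change sign, but some medians near 0 did. The median of all genes, 0.02, turned negative under the other scalings, and that of neighbours, -0.08, was 0.14 with a minimum of 5 CPM. The numbers of lower members ran from 17 to 22 with other pseudocounts and scalings. At 4-fold, 11 members were lower and 0 higher, of which 6 lower and 0 higher among paternally expressed members, 2 lower and 0 higher among those at an imprint, and 1 lower and 0 higher among tissue- or isoform-dependent ones; neighbours gave 7 lower and 0 higher, and all genes 1229 lower and 519 higher. At 1.5-fold, the higher counts were 5 members, 2 tissue- or isoform-dependent, 1 paternally expressed with its promoter elsewhere, 13 neighbours and 3582 of all genes. With a minimum of 5 CPM, 1737 of all genes were lower and their median was 0.12.

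Rescaling shifted all log2 ratios by -0.13 (common median), -0.24 (common upper quartile) and -0.31 (scaling to the reads of the listed genes, chosen after the data were seen), and the median of all genes became -0.11, -0.21 and -0.28. Under these 3 scalings, in that order, the higher counts were 1, 1 and 0 for paternally expressed members, 1, 1 and 0 for those at an imprint and 1, 1 and 0 for clusters, and the lower imprint factors were 8, 8 and 9. Higher members numbered 1 under the upper quartile and 0 under the listed reads, tissue- or isoform-dependent ones 0 under both, and under the listed reads 1 neighbour and 1310 of all genes were higher. Windows of 100 and 500 kb gave 5 and 28 lower neighbours, and 500 kb gave 12 higher. Leaving out members that overlap another gene, also chosen after the data were seen, gave 3 lower members at an imprint and 0 higher tissue- or isoform-dependent ones. The causes of these shifts were not tested beyond the change each setting makes.

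Single members changed sign in 3 of 236 alternatives, all in Ube3a and Copg2. Mkrn3 and Igf2r passed the lower line under all 3 scalings, Meg3 under the last 2 and Trappc9 under the last, while Sgce lost its higher call under all 3, H13 under the last 2 and Peg3 under the last. No paired analysis was possible because each genotype had 1 library, which also meant that none could be left out. Depth limits Ascl2, Magel2, Nap1l5 and Slc22a18, which had 4 to 14 reads in T/T.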
